A study of Mus musculus with 6 samples.

Results

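Agrp, Npy, Pomc and Cartpt, the 4 peptide genes by which neurons of the arcuate nucleus of the hypothalamus set food intake, were read out on arrays of mouse hypothalamus. Members were all probes whose gene name on the array equals one of these symbols. Each gene had 1 such probe, so that 4 of 56605 probes, or 4 of 37074 gene names, were members. Higher values were measured for Pomc and Npy on the arrays labelled GSK-J4, by 1.81-fold and 1.34-fold on the normalized scale. Cartpt, 1.44-fold higher, did not pass the same test, and Agrp differed by less than the spread between arrays.

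The arcuate nucleus holds opposing neuron types. One type makes agouti-related peptide (Agrp) and neuropeptide Y (Npy) and drives feeding. The other makes pro-opiomelanocortin (Pomc), the precursor of the satiety peptide alpha-MSH, and often the cocaine- and amphetamine-regulated transcript peptide (Cartpt). Alpha-MSH activates the melanocortin receptors Mc3r and Mc4r, and Agrp blocks them. Leptin, the hormone of fat tissue, is known to raise Pomc and to lower Agrp and Npy through its receptor Lepr and the transcription factor Stat3.

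The study asked whether GSK-J4, a cell-permeable inhibitor of the KDM6 enzymes that remove methyl groups from lysine 27 of histone H3, alters hypothalamic transcripts in obese mice. All 6 arrays carried RNA of hypothalamus from male C57BL/6J DIO mice, in which obesity is induced by diet, kept on a diet with 60 kcal% fat. The 3 arrays labelled GSK-J4 came from mice given 30 mg/kg and the 3 arrays labelled vehicle from mice given 0 mg/kg. Per the series' design text the tissue was taken at day 4 and each experiment used a different mouse, while the methods describe a longer course of daily injections at hour 2 of the light phase. According to the methods the mice were 6 weeks old when the diet began, stayed on it for 16 weeks, and were killed at hour 6 of the light phase. All mice were males of 1 strain, no lean group was analysed here, and the inhibitor was given to the whole animal.

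Arrays labelled vehicle were all on slide 1 of the file headers and were all scanned in scan 1, and arrays labelled GSK-J4 were all on slide 2 and in scan 2. Slide, scan and treatment therefore cannot be told apart for any value given here. The arrays labelled GSK-J4 were dimmer before normalization, with a 75th percentile of the signal of 406 to 461 against 787 to 916. Well above background were 57.7% to 58.7% of probes on these arrays and 62.8% to 63.6% on the arrays labelled vehicle. A hypothalamic origin was read from its markers with mixed results. Th, Tac2, Ghrh and Oxt were well above background on all 6 arrays, whereas Nkx2-1, Otp, Sim1 and Six6, transcription factors of hypothalamic neurons, were so on 0 arrays. Avp, Trh and Pmch were detected on 1 of 3 arrays labelled vehicle and 2 of 3 labelled GSK-J4. Of 6 markers of cortex and striatum, all 6 were kept.

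The probes are oligonucleotides of 60 bases, and the stretches they read are shown because each covers a different part of its precursor's transcript. Their positions are those the array files give on mm9. The Npy probe (A_51_P454873, plus strand) spans chr6:49773743-49777505, which is longer than the probe itself, so that it joins sequence from either side of an intron. The Cartpt probe (A_52_P208649, minus strand) likewise spans chr13:100668967-100669956. The Pomc probe (A_52_P671543, plus strand) lies at chr12:3960413-3960472, in the last coding part of the transcript. In the Npy probe, capitals mark the codons of the site where the mature peptide is cut and amidated. In the Cartpt probe, they mark the paired basic codons at which the shorter CART peptides are cut out. In the Pomc probe, printed for its first 56 bases, they mark the stop codon that ends beta-endorphin, the opioid peptide cut from the same precursor.
Npy: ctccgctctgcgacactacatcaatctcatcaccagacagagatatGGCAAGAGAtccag
Cartpt: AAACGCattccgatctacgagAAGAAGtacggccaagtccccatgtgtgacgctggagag
Pomc: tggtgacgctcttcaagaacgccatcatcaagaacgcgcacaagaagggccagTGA
In these reading frames 0 stop codons preceded the marked ones. The Agrp probe (A_55_P2049717, minus strand) lies at chr8:108090600-108090659 and holds AATAAA, the common signal for polyadenylation, from its base 41. It thus reads the end of the transcript and is not printed.

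Promoter sequence was at hand for Npy, Pomc and Cartpt, from RefSeq on GRCm38.p6, and is shown for the genes in which a searched motif was found. In the 250 bases before the start site, 5 motifs were searched on both strands: TTCNNNGAA (bound by STAT factors), TGACGTCA (the cAMP response element), CACGTG (an E-box), TGTTTAC (bound by FOXO factors) and TATAAA (the TATA box). Of 32851 such windows of all genes, these were held by 7.02%, 1.55%, 6.02%, 3.17% and 12.4% in that order. The Cartpt window (chr13:99900684-99900933, minus strand) held the cAMP response element, beginning 112 bases before the start, in capitals below. The Pomc window (chr12:3954695-3954944, plus strand) held the TATA box, beginning 25 bases before the start. The Npy window held 0 of the 5 motifs.
Cartpt promoter: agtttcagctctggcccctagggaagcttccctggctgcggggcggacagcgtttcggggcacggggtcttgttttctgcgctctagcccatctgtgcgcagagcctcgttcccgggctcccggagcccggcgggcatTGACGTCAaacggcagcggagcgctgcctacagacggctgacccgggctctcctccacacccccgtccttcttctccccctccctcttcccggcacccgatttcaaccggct
Pomc promoter: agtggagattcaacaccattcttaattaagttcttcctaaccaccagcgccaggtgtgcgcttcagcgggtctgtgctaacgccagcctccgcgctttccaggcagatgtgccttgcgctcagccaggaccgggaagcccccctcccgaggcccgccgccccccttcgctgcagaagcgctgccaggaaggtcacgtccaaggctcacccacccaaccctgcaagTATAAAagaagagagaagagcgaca
A match of letters says that the motif is present in the window and nothing about its use in these mice.

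The values that follow are the deposited log2 signals, which were quantile normalized so that all arrays share 1 distribution. A difference is therefore a position within the array and not an amount of RNA. Groups were compared with limma, two-sided, with p adjusted by the Benjamini-Hochberg method over 34443 kept probes, namely those that every array of 1 group or of both flagged as well above background. All 4 member probes were kept. In bulk tissue, fewer cells of a type and less RNA per cell cannot be told apart. Nothing in the labels says whether RNA was pooled, so that the p-values measure the spread between these arrays only.

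Pomc, the precursor of the satiety peptide alpha-MSH, showed the largest difference among the 4 genes. Its log2 signal was 7.79, 8.004 and 8.03 on vehicle arrays 1 to 3 and 8.74, 8.60 and 9.05 on GSK-J4 arrays 1 to 3. Every array labelled GSK-J4 lay above every array labelled vehicle, with a gap of 0.57 between the groups. The means were 7.94 ± 0.13 and 8.80 ± 0.23 (SD, n = 3 each). The difference was 0.85 on the log2 scale (SE 0.14, 95% confidence interval 0.51 to 1.20), or 1.81-fold (1.42 to 2.30), with a limma adjusted p of 0.022. In an exact permutation test over the arrays, two-sided, p was 0.1, the smallest that 3 arrays against 3 allow. This difference stood at the 98.2nd percentile of all kept probes. The call was lost when any array labelled vehicle or GSK-J4 array 1 was left out, with differences of 0.78 to 0.90 and limma adjusted p of 0.051 to 0.077. Without a vehicle array 5 to 13 of the 34443 kept probes were called at all, against 5788 with all 6 arrays. Without GSK-J4 array 1 it was 2402. Without GSK-J4 array 2 it was 4165, and without GSK-J4 array 3 it was 4018. These counts apply also where the calls of other genes were lost on leaving out an array.

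Npy, which the neurons that drive feeding make, differed less but with the smallest spread. Which cells of this bulk tissue gave the Npy signal was not tested. Its log2 signal was 11.46, 11.56 and 11.54 on vehicle arrays 1 to 3 and 11.90, 11.89 and 12.04 on GSK-J4 arrays 1 to 3. The groups again did not overlap, and the 3 arrays of each lay close together. The means were 11.52 ± 0.06 and 11.94 ± 0.08 (SD, n = 3 each). The difference was 0.42 on the log2 scale (SE 0.08, 95% confidence interval 0.23 to 0.61), or 1.34-fold (1.17 to 1.53), with a limma adjusted p of 0.027. The exact permutation p was again 0.1, the smallest possible. This call, too, was lost without any 1 of the vehicle arrays or without GSK-J4 array 1, at differences of 0.39 to 0.44 and limma adjusted p of 0.053 to 0.088.

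Cartpt, which is made by many Pomc neurons and elsewhere in the hypothalamus, had a like difference with more spread. Its log2 signal was 8.17, 8.34 and 8.71 on vehicle arrays 1 to 3 and 9.01, 9.05 and 8.72 on GSK-J4 arrays 1 to 3. The groups did not overlap, but only just: vehicle array 3 and GSK-J4 array 3 lay 0.01 apart. The means were 8.40 ± 0.28 and 8.93 ± 0.18 (SD, n = 3 each). The difference was 0.52 on the log2 scale (SE 0.17, 95% confidence interval 0.11 to 0.94), or 1.44-fold (1.08 to 1.92). It did not pass the test, with a limma adjusted p of 0.085, and the exact permutation p was 0.1.

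Agrp, the blocker of melanocortin receptors, was dim and did not separate the groups. Its log2 signal was 4.59, 4.43 and 5.20 on vehicle arrays 1 to 3 and 4.997, 4.44 and 5.08 on GSK-J4 arrays 1 to 3. Both groups held low and high arrays, vehicle array 3 was the highest of all, and the groups overlapped throughout. The probe was well above background on 3 of 3 arrays labelled vehicle and on 2 of 3 labelled GSK-J4, array 2 being the exception. The difference was 0.10 on the log2 scale (SE 0.26), with a limma adjusted p of 0.81 and an exact permutation p of 0.9. The 95% confidence interval, -0.54 to 0.75 or 0.685-fold to 1.68-fold, leaves room for a rise as large as that of Npy or Cartpt and for a fall of the same size.

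**Figure D1:**
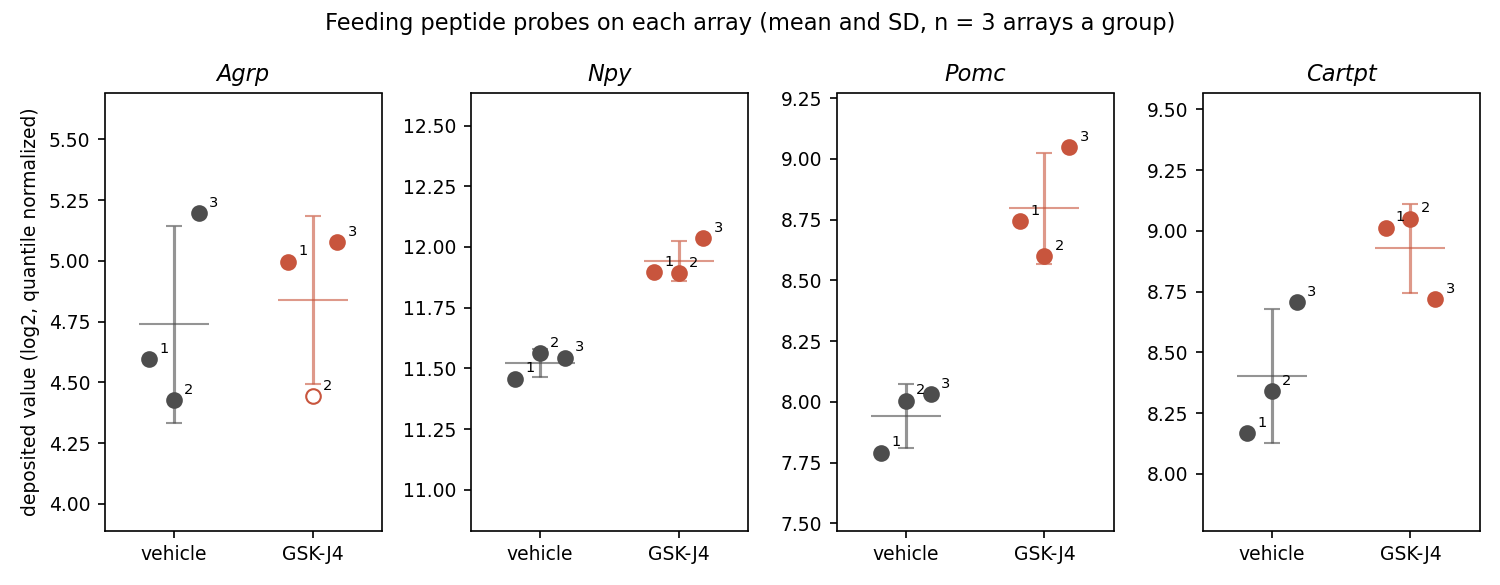
Deposited log2 signal (vertical axis, spanning the same range of 1.8 in each panel) of the 4 probes on each array, with the mean and SD of 3 arrays a group and replicate numbers beside the points. An open point was not well above background. The groups are apart for Pomc and Npy, touch for Cartpt (gap 0.01) and overlap for Agrp.

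Of the 4 members, 2 were called higher and 0 lower, where 16.8% of all kept probes were called, 8.39% higher and 8.42% lower. Among probes of like base content the share called higher was larger, as given below. At an unadjusted p of 0.05 in limma, 3 members were higher and 0 lower, against 36.5% of kept probes in either direction. For 3 of the 4, the groups did not overlap with GSK-J4 above, against 24.5% of kept probes. All 4 differences were above 0, against 52.7% of kept probes. These 2 shares are over kept probes of any base content. In bins of kept probes by their share of guanine and cytosine, the lower quartile of the difference was -0.16 at a mean of 45.3%. It was 0.0076 at 51.7% and 0.042 at 55.2%, so that most such probes were above 0 too. Of the genes, Pomc alone passed the thresholds that the methods name, a fold of 1.5 with an unadjusted p of 0.05, which 4.79% of kept probes passed upward and 7.86% downward.

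Whether the genes differed from each other in their change was tested on the difference of 2 genes' values within each array, over 6 pairs, by exact permutation. The change of Agrp was 0.75 log2 units below that of Pomc, and that of Npy 0.43 below that of Pomc. In both pairs the per-array values of the groups did not overlap, but p was 0.1, the smallest possible, and 0.3 after adjustment over the 6 pairs. The change of Agrp was 0.42 below that of Cartpt (exact permutation p = 0.2, adjusted 0.4) and 0.32 below that of Npy (exact permutation p = 0.4, adjusted 0.48). No pair passed after adjustment, which 3 arrays against 3 do not allow in this test. The changes of Pomc and Cartpt differed by 0.33 (exact permutation p = 0.4, adjusted 0.48), and those of Npy and Cartpt by 0.10 (exact permutation p = 1, adjusted 1).

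The direction of these differences rests on the normalization. In the scanner signal before normalization, Pomc read 307, 400 and 354 on vehicle arrays 1 to 3 and 320, 288 and 354 on GSK-J4 arrays 1 to 3, so that the groups overlapped. Npy read 3515, 4468 and 3713 on vehicle arrays and 3089, 2972 and 2975 on GSK-J4 arrays, all lower than on any vehicle array. Cartpt read 395, 500 and 550 on vehicle arrays and 392, 397 and 282 on GSK-J4 arrays. The highest GSK-J4 array just exceeded the lowest vehicle array for Cartpt. Agrp read 33.8, 33.3 and 50.5 on vehicle arrays and 22.5, 15.98 and 21.8 on GSK-J4 arrays, with all GSK-J4 arrays below. Its pixels were only 1.91 to 3.15 times as bright as the local background on vehicle arrays, and 1.92 to 2.24 times on GSK-J4 arrays.

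Raw signals, averaged on the log2 scale, were thus lower on the GSK-J4 arrays for all 4 genes. The folds were 1.099 for Pomc, 1.29 for Npy, 1.35 for Cartpt and 1.94 for Agrp. The median over kept probes was 1.83-fold lower. Pomc, Npy and Cartpt were lower by less than the typical probe and Agrp by about as much, and quantile normalization sets the typical probe to no difference. Without any normalization the log2 differences were -0.14 for Pomc (limma adjusted p = 0.40), -0.36 for Npy (0.034), -0.43 for Cartpt (0.064) and -0.95 for Agrp (0.00465). How far the dimmer slide carries these values was not tested.

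**Figure D2:**
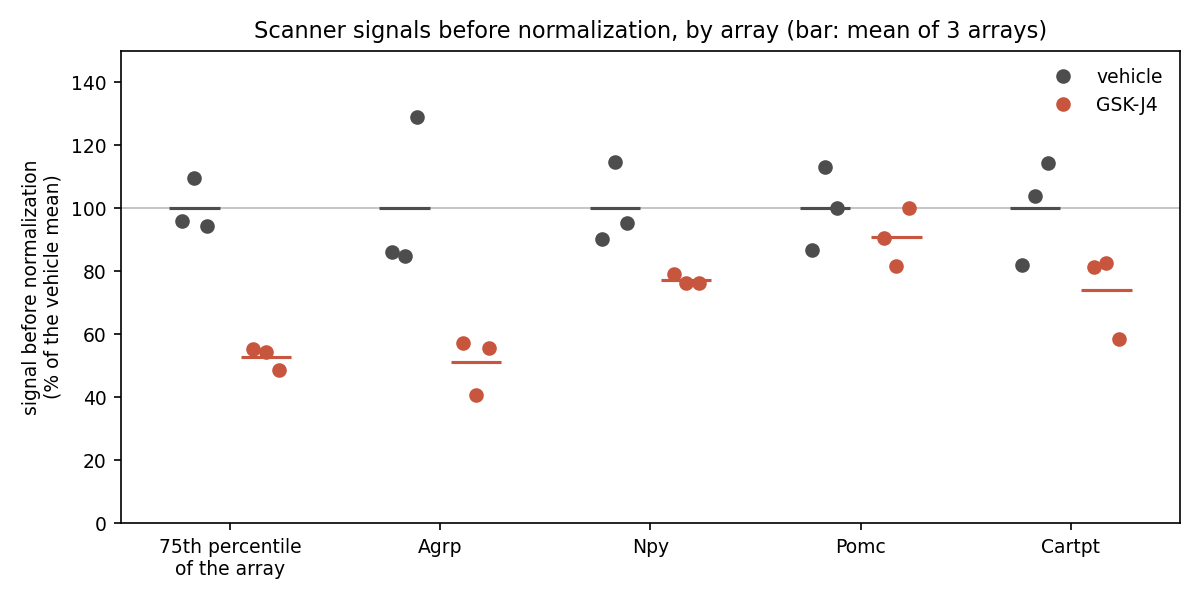
Scanner signal before normalization (vertical axis, as percent of the vehicle mean, from 0) of each array's 75th percentile and of the 4 probes, with 1 point an array and a bar at the mean of 3. The GSK-J4 arrays are dimmer as a whole, Agrp follows the array (1.94-fold lower) and Pomc departs from it most (1.099-fold lower). These folds are of signals averaged on the log2 scale, while the bars are means of the signals themselves.

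**Figure D3:**
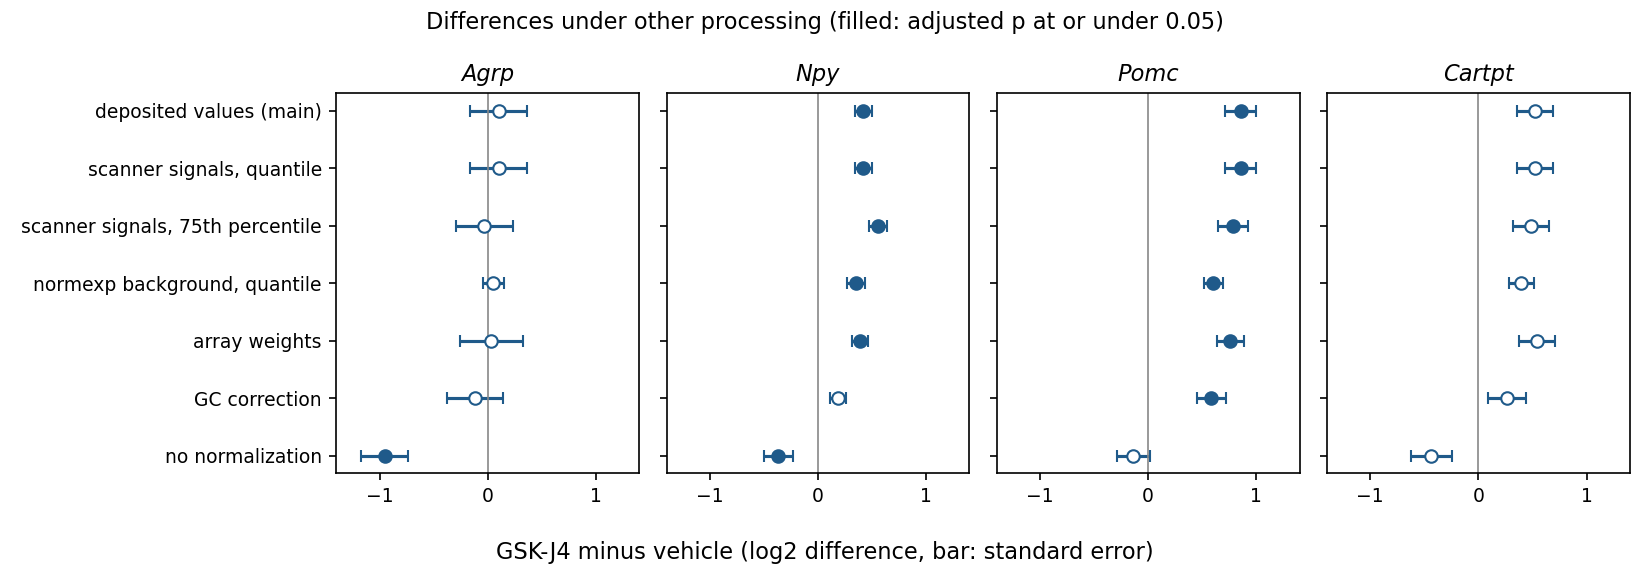
GSK-J4 minus vehicle difference (horizontal axis, log2, bar: standard error) of each gene under 7 ways of processing the same 6 arrays; filled points have a limma adjusted p at or under 0.05. Pomc is called in all but the last, Npy loses its call with GC correction, and all 4 differences are below 0 when no normalization is made.

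The share of guanine and cytosine in a probe moved with the group difference over the whole array. Among probes with under 30% GC the median difference was -0.42, and among those at 60% or above it was 0.30. The 4 members had 48.3% (Agrp), 50% (Npy), 53.3% (Cartpt) and 55% (Pomc) GC, and their differences ran in the same order as their GC. Kept probes within 2.5 percentage points of each had median differences of 0.19, 0.20, 0.23 and 0.23 in that order. Of these probes 15.7%, 17.2%, 20.6% and 21.0% were called higher, against 8.39% of all kept probes. Of the 3692 probes in the band of Pomc, 3.55% had a difference at least as high, and of the 2429 in that of Npy, 21.9%. After the trend with GC was subtracted from each array, the difference of Pomc was 0.59 (limma adjusted p = 0.049) and that of Npy 0.19 (0.16). Cartpt then stood at 0.26 (limma adjusted p = 0.35) and Agrp at -0.11 (0.79).

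**Figure D4:**
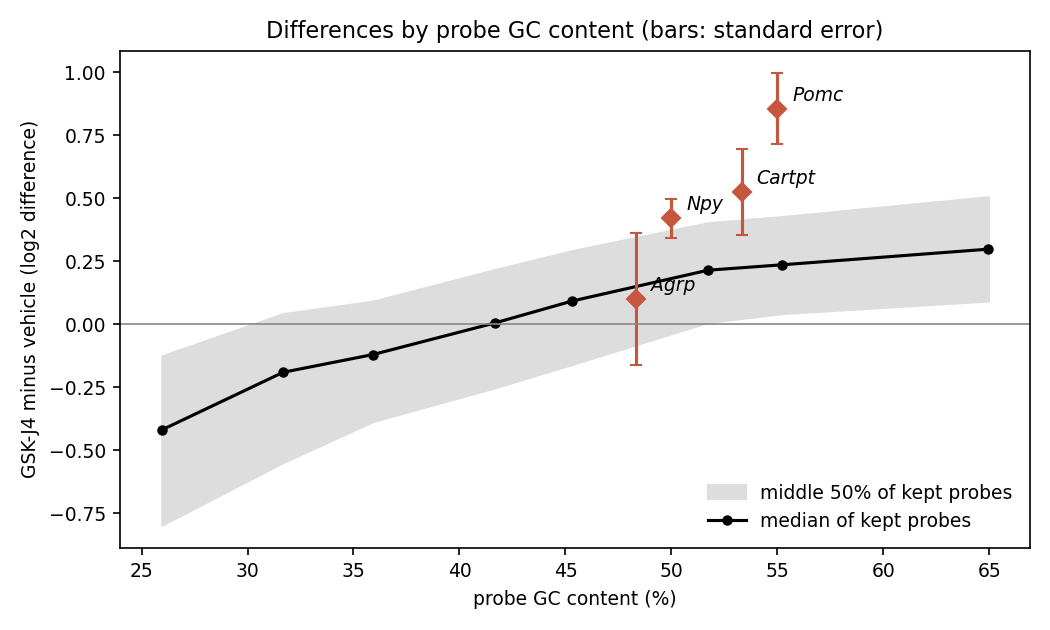
GSK-J4 minus vehicle difference (vertical axis, log2) against the GC content of the probe (horizontal axis, percent). The black line is the median and the grey band the middle 50% of kept probes in 8 bins of GC, and red diamonds are the 4 members with their standard errors. The median rises from -0.42 to 0.30, Agrp lies near it, and Npy, Cartpt and Pomc lie above it by increasing amounts.

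The pathway around the peptides was taken from a list of 46 genes in 8 roles, each read by its brightest kept probe. Of these, 36 had a kept probe, 2 were called higher and 1 lower, where over all genes 8.6% were called higher and 7.56% lower. Their median difference was 0.07, against 0.04 for all genes kept.

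Among receptors of the peptides, 4 of 5 were kept and 0 called, nor did any pass limma unadjusted (0 of 4). Mc4r, the receptor through which alpha-MSH curbs feeding, differed by 0.25 (SE 0.15, limma adjusted p = 0.28). Npy1r, a receptor that carries the effect of Npy on feeding, differed by -0.0047 (SE 0.079, limma adjusted p = 0.97), while the other of its 2 kept probes differed by 0.74. Mc3r was well above background on 1 of 3 arrays labelled vehicle and 0 of 3 labelled GSK-J4, and has no value here. Of the 4 accessory proteins of melanocortin receptors, Atrn (attractin, a membrane protein of agouti signalling) was called lower. Its log2 signal was 13.01, 13.03 and 13.01 on vehicle arrays and 12.65, 12.76 and 12.74 on GSK-J4 arrays. The groups did not overlap, and the difference was -0.30 (SE 0.07, limma adjusted p = 0.040), but the other Atrn probe differed by 0.22. The value of the called probe was -0.13 with GC correction (limma adjusted p = 0.25) and -0.093 with scaling to the 75th percentile (0.36), and its call was lost without any 1 of the 6 arrays (0.063 to 0.13).

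The genes of precursor processing gave 0 calls among 7 kept genes, 2 with an unadjusted limma p of 0.05 or less, with a median of 0.06. Pcsk1, the convertase that makes the first cuts in the Pomc precursor, differed by 0.60 (SE 0.20, limma adjusted p = 0.090). Prcp, which breaks down alpha-MSH, differed by 0.46 (SE 0.15, limma adjusted p = 0.079), but 1 of its 3 kept probes was called lower, and they reached down to -0.65. Pcsk2, the convertase that releases alpha-MSH, differed by 0.17 (SE 0.10, limma adjusted p = 0.29), while its other kept probe differed by -1.13 and was called lower.

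Upstream of the peptides, the leptin receptor gene Lepr was called higher. Its log2 signal was 7.93, 8.10 and 8.08 on vehicle arrays 1 to 3 and 8.70, 8.66 and 8.73 on GSK-J4 arrays 1 to 3. All GSK-J4 arrays were higher, and the difference was 0.66 (SE 0.08, limma adjusted p = 0.015). The other kept Lepr probe, of 6 on the array, differed by -0.06, and the mean of both by 0.30 (limma adjusted p = 0.60). The call was lost without any 1 of the vehicle arrays, with limma adjusted p of 0.059 to 0.068. Of the 7 genes of leptin and insulin signalling, all 7 were kept, 6 were above 0 and 1 was called. At an unadjusted limma p of 0.05, 5 passed higher and 1 lower, where 36.5% of kept probes passed in either direction. The called gene, Irs2, an adaptor of the insulin receptor, read 13.84, 13.83 and 13.83 on vehicle arrays and 14.14, 14.13 and 14.11 on GSK-J4 arrays. Its groups were apart, with a difference of 0.29 (SE 0.06, limma adjusted p = 0.034). With GC correction it was 0.032 (limma adjusted p = 0.76), with scaling to the 75th percentile 0.60 (0.011), and the call was lost without any 1 of the 6 arrays (0.058 to 0.12). Socs3, which is induced by leptin and dampens its receptor, differed by 0.62 (SE 0.16, limma adjusted p = 0.052). Foxo1, which restrains Pomc and favours Agrp, differed by 0.41 (SE 0.11, limma adjusted p = 0.054), with its other kept probe at -0.14 and the mean of both at 0.14 (0.31). Stat3, which carries the leptin signal to Pomc, differed by 0.50 (SE 0.18, limma adjusted p = 0.10), with its other kept probe at 0.21. Ptpn1, a phosphatase that ends leptin signalling, differed by 0.23 (limma adjusted p = 0.085), with its other kept probe at 0.10. The kinase Jak2 differed by -0.22 (limma adjusted p = 0.087), with its other kept probe at -0.0034.

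Among transcription factors of arcuate neurons 4 of 9 were kept and 0 called, with 1 at an unadjusted limma p of 0.05 or less. Nr3c1, the glucocorticoid receptor, differed by -0.29 (limma adjusted p = 0.082), with its other probe at 0.48 and called higher. Bsx, which drives Agrp and Npy, and Isl1 and Prdm12, which Pomc needs in development, were well above background on 0 arrays. Of 4 co-transmitter genes 0 were called and 1 passed limma unadjusted. Gad1, which makes the GABA that Agrp neurons release, differed by -0.25 (limma adjusted p = 0.072), while its 3 kept probes reached up to 0.90 and 1 of them was called higher. Of second-order neuron genes 3 of 5 were kept, 0 were called and 1 passed limma unadjusted.

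Beside the 4 members, 9 of 15 other feeding peptides were kept, 7 of these were above 0 and 0 were called by limma, with a median difference of 0.26. At an unadjusted limma p of 0.05, 3 of the 9 passed, all higher, where 36.5% of kept probes passed in either direction. Hcrt (orexin, a peptide of the lateral hypothalamus that promotes feeding and waking) differed by 0.81 (SE 0.22, limma adjusted p = 0.059). It was dim, with mean log2 signals of 4.76 on vehicle and 5.57 on GSK-J4 arrays, and 1 of its 2 probes was kept. Gal (galanin) differed by 0.56 (SE 0.17, limma adjusted p = 0.070).

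**Figure D5:**
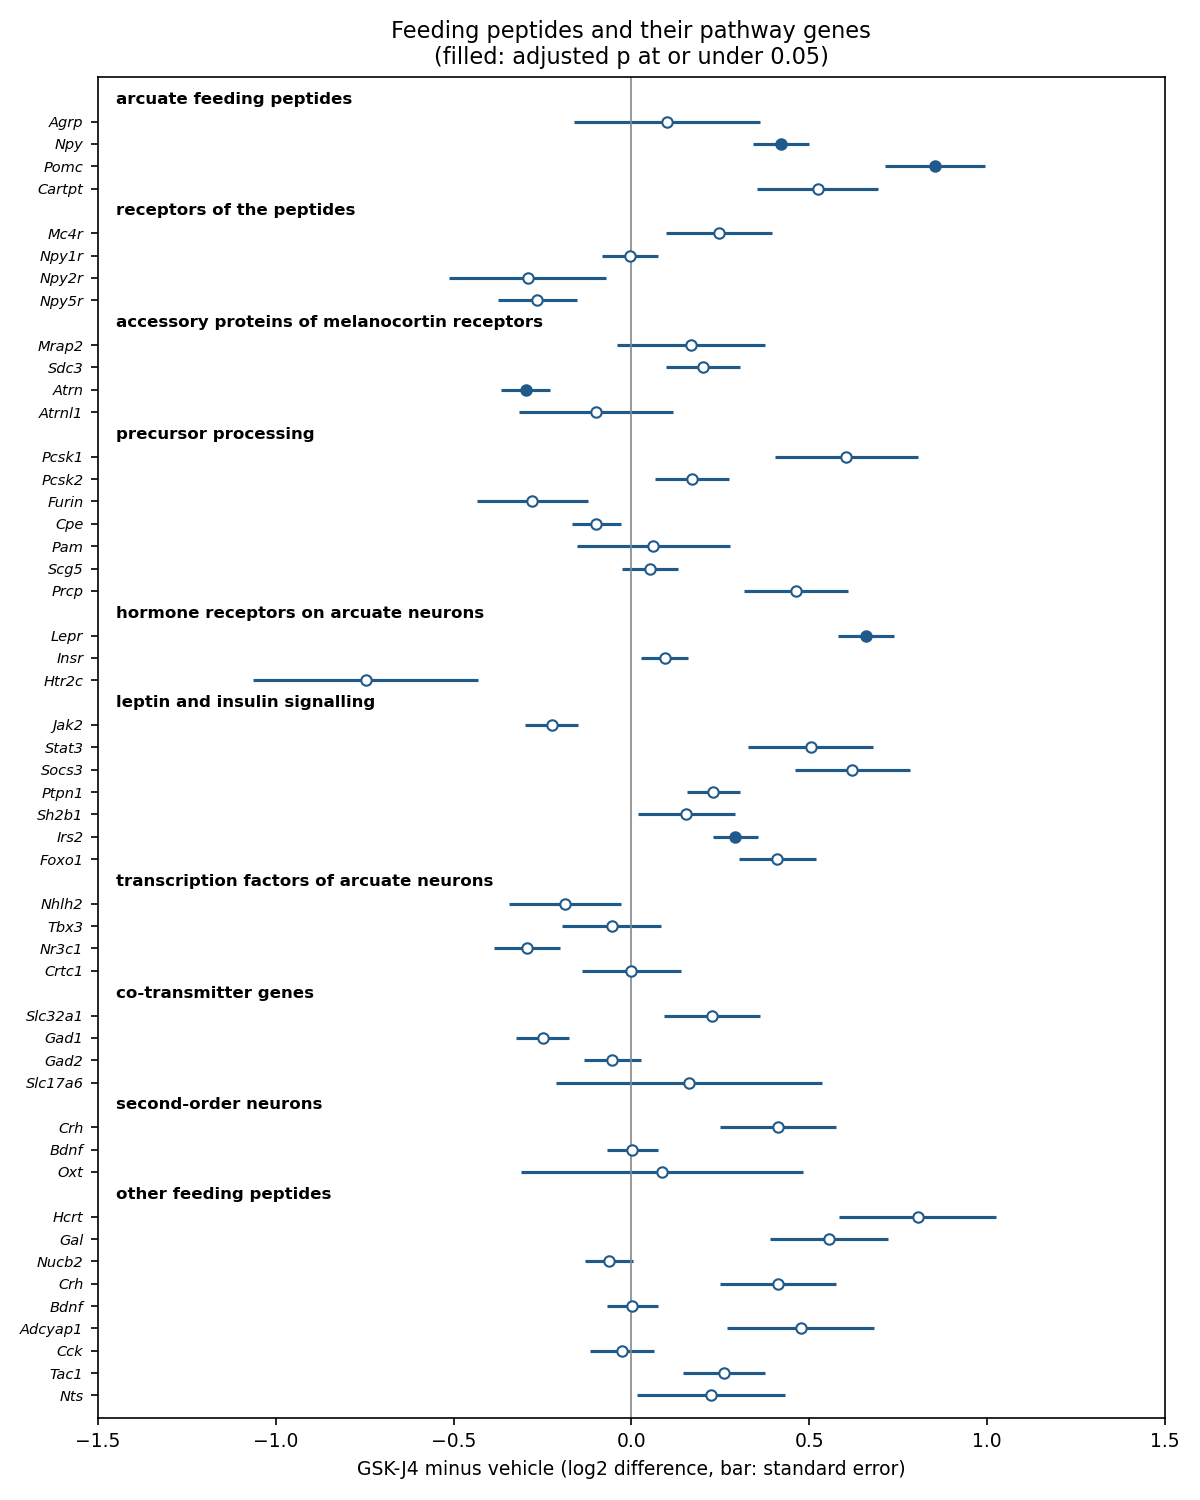
GSK-J4 minus vehicle difference (horizontal axis, log2, bar: standard error) of the 4 members, the 36 kept pathway genes by role and 9 other feeding peptides, each by its brightest kept probe; filled points have a limma adjusted p at or under 0.05. Besides Npy and Pomc, Lepr and Irs2 are filled above 0 and Atrn below, and Crh and Bdnf appear in both lists.

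Markers of other cells that the tissue could hold were read beside the members. Of 7 markers of other arcuate neurons, 5 were kept, 4 of them were above 0, 0 were called and 3 passed limma unadjusted, with a median of 0.39, each by its brightest kept probe. Over all kept probes, 52.7% were above 0 and 36.5% passed limma unadjusted in either direction. The other kept probe of Ghrh was called higher (0.59). Kiss1 had the largest difference of the 5 (1.02) and was kept only through the GSK-J4 arrays. It was well above background on 2 of 3 arrays labelled vehicle and 3 of 3 labelled GSK-J4. The mean log2 level of the 5, Kiss1 included, was 7.16 to 7.30 on vehicle arrays and 7.52 to 7.77 on GSK-J4 arrays. This level and the counts above thus rest in part on a gene kept through the arrays on which it was high. The other kept markers, well above background on every array, differed by 0.44 (Tac2), 0.39 (Ghrh), 0.39 (Th) and -0.056 (Tbx3). How much of the members' differences goes with the amount of arcuate tissue in each sample was not tested. Pomc is also a pituitary gene, and of 11 pituitary markers 1, Lhb, was kept (difference 0.18), while Gh, Prl, Cga, Pou1f1 and Tbx19 were well above background on 0 arrays.

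Markers of neighbouring regions, each by its brightest kept probe, went in both directions. Of 5 kept tanycyte markers 1 was called higher, Rax (difference 1.09), while 3 were below 0 and the median was -0.11. Rax was dim, with a mean log2 signal of 3.97 on vehicle arrays and 5.06 on GSK-J4 arrays. It was well above background on 2 of 3 vehicle arrays, and so was kept only through the GSK-J4 arrays. Of those below 0, Col25a1 (-0.74) had its other kept probe at 3.40, not called. Of 4 kept markers of the suprachiasmatic nucleus Nms was called higher (0.57, median 0.27), and of 4 of the thalamus Tnnt1 (0.66, median 0.36, with Prkcd at -0.41). Of the 6 of cortex and striatum Neurod6 was called lower (-0.47), while 3 were above 0 and the median was 0.04. The calls of Rax, Nms, Tnnt1 and Neurod6 had limma adjusted p of 0.032 to 0.034. Tbr1, at -0.06 by its brightest probe, had its other kept probe called higher (0.97). Median differences were 0.08 for neurons, 0.04 for astrocytes, 0.08 for oligodendrocytes, 0.17 for microglia and 0.03 for endothelium. By the brightest probe 0 of these 20 genes were called by limma and 5 had an unadjusted p of 0.05 or less. Of their other kept probes, 2 of Syt1 (down to -1.14), 1 of Snap25 (lowest -0.75) and 1 of Slc1a3 (-0.76) were called lower. Choroid plexus stood apart on vehicle array 1, with a mean log2 level of its 6 kept markers of 13.01, against 7.35 to 8.93 on the other arrays. Without that array, Pomc differed by 0.78, Npy by 0.39, Cartpt by 0.40 and Agrp by 0.03.

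The probes whose levels ran most like each member over the 6 arrays were named from among those well above background on every array. Compared were 24999 probes with Agrp and 24998 with each other member, against 30939 kept probes so flagged. By Pearson's r, Pomc was closest to Dcdc2b, Lrp3 and Ankrd17 (0.999 to 0.998), and Npy to 3110040N11Rik, Stoml2 and Txlna (0.999 to 0.998). Cartpt was closest to Fndc9, Hs3st5 and Utp3 (0.991 to 0.990), and Agrp to Gpd1, Phactr4 and Ppp1r12b (0.980 to 0.973). Values of r of 0.9 or more were reached by 10.4% of the compared probes with Npy, 10.1% with Pomc, 2.03% with Cartpt and 0.248% with Agrp. These points share their arrays and the split between slides.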

How the data were processed

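RNA of hypothalamus, 1 sample an array, was labelled with 1 colour and hybridized to 6 Agilent mouse arrays. The authors extracted spot intensity with Feature Extraction 10.7.1.1, according to the submitters' processing notes, and the deposited intensities carry flags for background. A second deposited table holds log2 values, quantile normalized in GeneSpring per the methods, whose columns correlated with their own arrays at 0.999 or more. Groups and replicate numbers came from the sample titles. The log2 table was used as deposited; control probes were left out and 34443 of 56605 probes, flagged as well above background by every array of a group, were kept. Groups were compared in R 4.3.3 with limma 3.58.1 (lmFit, eBayes, no covariate, Benjamini-Hochberg over kept probes, call at an adjusted p of 0.05). Pairs of genes were compared by exact permutation over 20 splits. The number of arrays limits the precision. Scripts were tested on simulated data. Named were the 4 members, pathway genes and feeding peptides that were called, up to 10 more by p, fixed genes of the pathway, markers that define a list or were called, and the 3 genes most like each member. The members and lists were chosen with earlier results of these data known. Alternatives covered normalization, background, filters, weights, tests, a replicate block, GC, probe choice and leaving out arrays. Replicate numbers did not pair the arrays (r of deviations 0.0073, 0.026 and 0.081).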

Additional observations from a re-analysis of the deposited data

How the results depend on the processing

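With 3 arrays a group and the groups on different slides, small differences cannot be resolved, and Agrp, near the background, is the least certain value. Signals taken from the scanner files and quantile normalized, normexp background, no filter, other detection flags, trend and robust fits, array weights and other probe choices left the calls of all 4 members on their side of the threshold. Over all alternatives that kept some normalization Pomc ranged from 0.59 to 0.95, Npy from 0.19 to 0.56 and Cartpt from 0.26 to 0.67, all above 0, and Cartpt had adjusted p of 0.061 to 0.45. Agrp was at -0.030 with scaling to the 75th percentile and at -0.11 with GC correction. With GC correction Npy was 0.19, its call lost, so that 1 member was called. By the methods' t-test, Pomc, at 0.85, had an adjusted p of 0.051 and 1 member was called. Without equal variances Npy (0.42) and Pomc (0.85) had adjusted p of 0.082 and 0.11, and 0 members were called.

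Replicate numbers did not pair the arrays, and the fit with the replicate block is given for completeness. It left Npy at 0.42 (limma adjusted p = 0.086) and Pomc at 0.85 (0.080). Block and GC correction together gave -0.11 for Agrp, 0.19 for Npy and 0.59 for Pomc, at 0.61, 0.23 and 0.11. In both fits 0 members, 0 pathway genes and 0 of all kept probes were called by limma in either direction, while 32.1% and 27.7% of kept probes had an unadjusted p of 0.05 or less.

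Leaving out 1 array at a time gave -0.056 to 0.33 for Agrp, 0.37 to 0.45 for Npy, 0.73 to 0.95 for Pomc and 0.40 to 0.67 for Cartpt, and 0 to 2 members called higher. Agrp was below 0 without vehicle replicate 2 (-0.056) and without GSK-J4 replicate 3 (-0.019). Of all kept probes 1 to 2075 were then called higher and 4 to 2481 lower, the lowest counts all without a vehicle array, and of the pathway list 0 to 4 higher and 0 to 1 lower.

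An alternative chosen after seeing the data, no normalization between arrays, gave -0.95 for Agrp, -0.36 for Npy, -0.14 for Pomc and -0.43 for Cartpt. It called 0 members higher and 2 lower, 33 of all kept probes higher and 30373 lower, and 0 pathway genes higher and 30 lower. It also turned Lepr (-0.33), Irs2 (-0.33), Socs3 (-0.42), Foxo1 (-0.34), Hcrt (-0.25), Gal (-0.46), Prcp (-0.43), Ptpn1 (-0.47), Pcsk1 (-0.37), Mc4r (-0.73), Pcsk2 (-0.43) and Stat3 (-0.27).

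Over 34443 kept probes, 5036 were called higher with the 75th percentile, 1831 higher and 1484 lower by the methods' t-test, and 56 and 37 without equal variances, the t-tests giving a value for 34442. Over the same probes 1485 were higher with GC correction. Over all 56605 probes, with no filter, 1793 were higher. Over 22117 genes, 1867 were higher and 1642 lower with the mean of a gene's probes, and 1723 lower with 1 probe per gene, so that fewer features were tested. Of the pathway list, 9 higher and 0 lower were called with the 75th percentile, 5 and 2 with normexp, 5 and 3 with trend and robust fits, and 4 higher with probes detected on all arrays. With other detection flags and with GC correction 1 was higher and 0 lower, with the mean of probes 1 was higher, and without equal variances 0 were higher and 0 lower. Gad1 turned to 0.017 with the 75th percentile, and to 0.17 with the mean of its probes. That mean also turned Prcp (-0.090), Nr3c1 (0.092), Pcsk2 (-0.48) and Npy1r (0.37). Npy1r was 0.11 with the 75th percentile, 0.10 with GC correction, 0.10 with block and GC correction, and -0.035 to 0.037 with 1 array left out. The causes of these changes were not tested.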
